A study of Homo sapiens with 9 samples.

Results

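The RGK GTPases and the pore-forming subunits of voltage-gated calcium channels were followed in H295R, a steroid-making line from a human adrenocortical carcinoma. The 8 genes were chosen by name, with earlier results of these data known. They are the RGK members GEM, RRAD, REM1 and REM2, and the pore subunits CACNA1C, CACNA1D, CACNA1G and CACNA1H. All 8 were on the array, with 21 probe sets, among 19775 genes with 41091 probe sets. Where a gene had several probe sets, its value is that of the brightest one, judged by the mean over the 9 arrays. The study asked whether inhibitors of the cholesteryl ester transfer protein (CETP) switch on the renin-angiotensin-aldosterone system in cells of adrenal origin. Cells had 3 h with DMSO, the vehicle, with 100 nM angiotensin II, the hormone that drives aldosterone secretion, or with 100 nM torcetrapib, a CETP inhibitor that the labels call by its code name and the series title by its drug name. Each of the 3 groups held 3 arrays, a number that limits the precision. Nothing in the labels tells whether 3 arrays stand for 3 cultures, so the p-values here speak only of the spread between arrays, which may be technical.

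Calcium entry through voltage-gated channels is a main trigger of aldosterone synthesis in the zona glomerulosa of the adrenal cortex. CACNA1C and CACNA1D form L-type channels, whose currents last long, and of these the CACNA1D channel opens at the more negative voltages. CACNA1G and CACNA1H form T-type channels, which open at weak depolarisation and close quickly. RGK proteins are small Ras-related GTPases that bind the beta subunit of high-voltage-activated channels such as the L-type and keep the current through them low, while T-type channels do not need that subunit. Gain-of-function mutations of CACNA1D and CACNA1H are known causes of primary aldosteronism.

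The cells carried the markers of adrenal cortex. The 7 measured markers lay between 7.12 for NR5A1 and 11.98 for FDX1 as means over the 9 arrays, on the log2 scale of the deposited values, where the median gene lay at 6.73 and 25% of genes lay under 4.87. Their mean ran from 9.50 to 9.67 on the DMSO arrays, from 9.73 to 9.84 with angiotensin II and from 9.63 to 9.72 with torcetrapib. Of the 7, 3 were called higher with angiotensin II, where 3.36% of all genes were. With torcetrapib 1 was called higher than with DMSO, where 0.592% of all genes were, and 3 lower than with angiotensin II, where 6.68% were. The part of these markers in the results below was not tested. Of 7 markers of adrenal medulla and neurons, between 3.91 for TH and 8.53 for CHGB, 0 passed the test described below in any of the 3 comparisons. The same held for 4 markers of striated muscle, of which MB was the brightest at 8.18, and for 7 of fibroblasts, endothelium and immune cells, from 3.50 for PTPRC to 7.72 for COL1A1. An RNA quality index, control probe sets of ACTB and GAPDH with those at the 3' end subtracted from those at the 5' end, was -0.24 ± 0.03 (SD, n = 3) with torcetrapib, -0.50 ± 0.22 with DMSO and -0.62 ± 0.02 with angiotensin II. Of all 54675 probe sets 52.1% held exactly equal values on 2 or more arrays, as did 11 of the 21 member probe sets. Within a group 25.7% held equal values, as did 7 of the 21, among them GEM, at 9.10352 on torcetrapib replicates 1 and 3. A small spread between arrays may therefore be partly a property of the deposited values, which was not tested.

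GEM was the member that responded. It encodes the RGK protein first known from activated lymphocytes, and its expression was raised by both agents. The DMSO arrays lay at 7.60, 7.73 and 7.63, the angiotensin II arrays at 11.90, 11.73 and 11.95, and the torcetrapib arrays at 9.10, 9.16 and 9.10. No array of a group overlapped another group, and torcetrapib stood between DMSO and angiotensin II. In such bulk RNA a change in the number of cells of a kind and a change in RNA per cell cannot be told apart.

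**Figure D1:**
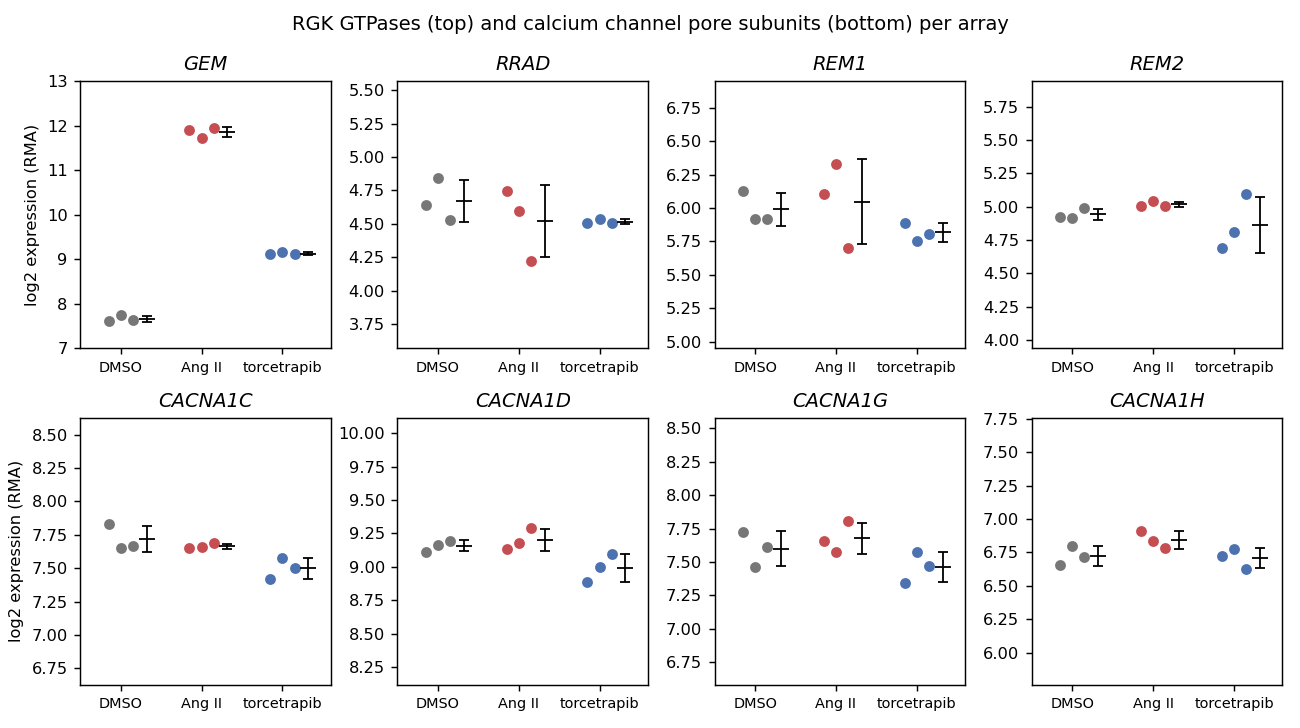
Log2 expression (RMA) of the 4 RGK genes (top row) and the 4 pore subunits (bottom row) by group, with 3 arrays each as points and the group mean ± SD as a bar; the GEM axis runs from 7 to 13 and each other axis covers 2 log2 units around its gene's mean. GEM separates the 3 groups, at 7.66, 11.86 and 9.12, while groups of the other genes lie within 0.23 log2 units of each other.

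Against the vehicle, angiotensin II raised GEM 18.5-fold, with a log2 change of 4.21 ± 0.06 (SE, 95% interval 4.07 to 4.34, limma with Benjamini-Hochberg adjustment over all genes, adjusted p = 1.16e-15). GEM had the third largest change of all 19775 genes in that comparison and the smallest p. Torcetrapib raised it 2.77-fold, by 1.47 ± 0.06 (1.34 to 1.60, adjusted p = 1.19e-09), the fourth largest change. At the same dose and time GEM was 6.67-fold lower with torcetrapib than with angiotensin II, a log2 change of -2.74 ± 0.06 (-2.87 to -2.60, adjusted p = 7.98e-13). The order DMSO, torcetrapib, angiotensin II therefore had a called difference at each step.

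GEM was the 1 of 8 members called in each comparison, or 12.5%, in a set chosen with earlier results of these data known. Over all genes 6.12% were called with angiotensin II (3.36% higher, 2.76% lower), 1.16% with torcetrapib (0.592% higher, 0.566% lower) and 11.3% between the agents (4.61% higher, 6.68% lower with torcetrapib), so the count of 1 is near the background of the last comparison. These shares depend on the fit. Between the agents 2232 genes were called, but 280 with the RNA quality index in the model and 1425, 1486 and 1351 without torcetrapib replicate 1, 2 and 3. For torcetrapib against DMSO 229 were called, but 76 with the index, 83 to 92 without any 1 torcetrapib array, 94 and 105 without DMSO replicates 1 and 3, and 917 without DMSO replicate 2. The gene has 1 probe set on the array, so no other probe set checks the size. With the RNA quality index in the model its changes were 4.24, 1.38 and -2.86 in the same order of comparisons, all still called. The index itself differs between the groups, and with it the SE of the change between the agents went from 0.06 to 0.10. On the torcetrapib arrays the index ran from -0.28 to -0.22, and on the angiotensin II arrays from -0.63 to -0.60. The model can hardly separate index and agent. Where a call between the agents was lost with the index, as below, RNA quality and agent cannot be told apart.

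**Figure D2:**
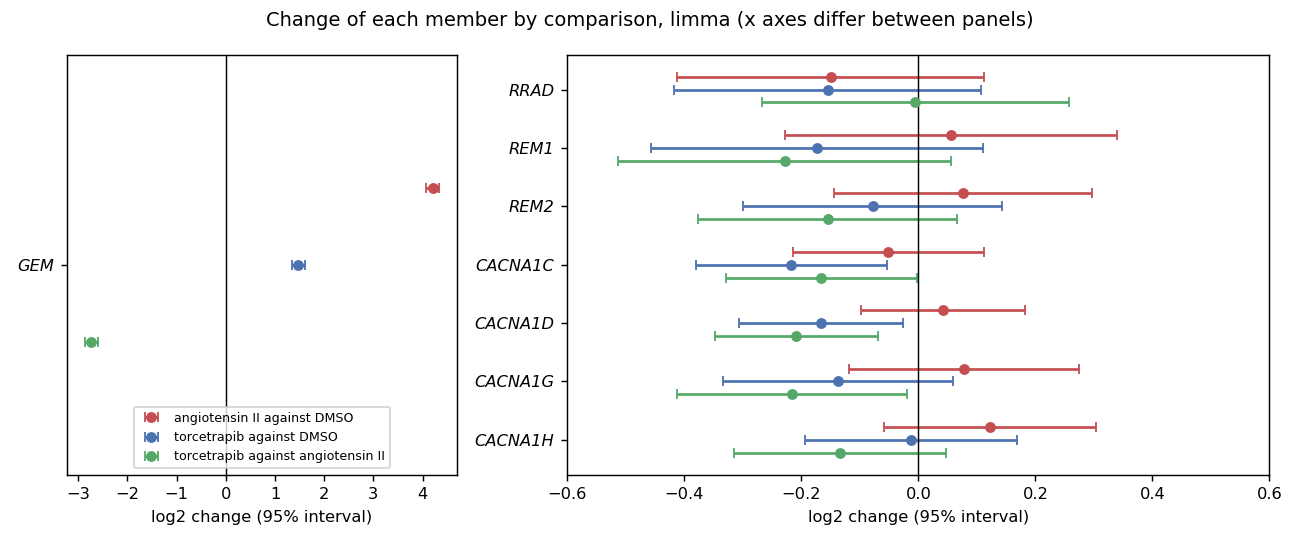
Log2 change of each member with its 95% interval (limma) for angiotensin II against DMSO (red), torcetrapib against DMSO (blue) and torcetrapib against angiotensin II (green), with GEM on the left and the other 7 members on a narrower axis on the right. The intervals of GEM stay far from 0 at 4.21, 1.47 and -2.74, while the 7 others lie between -0.23 and 0.12.

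The 3 other RGK genes gave no called change. RRAD encodes Rad, which in heart muscle restrains the L-type current until protein kinase A phosphorylates it. Its brightest probe set, of a type that can bind several transcripts (_s_at), was dim, under 4.87 on every array, at 4.64, 4.84 and 4.53 with DMSO, 4.74, 4.60 and 4.22 with angiotensin II and 4.51, 4.54 and 4.50 with torcetrapib. The groups overlapped, and the third angiotensin II array was the lowest of the 9. The change was -0.15 ± 0.12 (adjusted p = 0.646) with angiotensin II and -0.15 ± 0.12 (adjusted p = 0.664) with torcetrapib. Its other probe sets, with means of 4.55 and 3.28, moved by less than 0.10 in either comparison with DMSO.

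REM1 encodes Rem, another RGK inhibitor of L-type channels. It read 6.13, 5.92 and 5.92 with DMSO, 6.10, 6.33 and 5.70 with angiotensin II, and 5.89, 5.75 and 5.81 with torcetrapib. The angiotensin II arrays spread over the whole range of the gene, while all 3 torcetrapib arrays lay just under the DMSO arrays. The changes were 0.06 ± 0.13 and -0.17 ± 0.13, with adjusted p = 0.909 and 0.650 in limma. REM2, an RGK member known from neurons, was near 4.87 too, at 4.92, 4.92 and 4.99 with DMSO, 5.01, 5.04 and 5.01 with angiotensin II and 4.69, 4.81 and 5.10 with torcetrapib. The angiotensin II arrays all lay just above the DMSO arrays and the torcetrapib arrays spanned both. Its changes were 0.08 ± 0.10 (adjusted p = 0.824) and -0.08 ± 0.10 (adjusted p = 0.819).

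REM2 is the RGK gene whose promoter window was in the RefSeq table used, and its sequence is shown as that of a family member without a call. The promoters of GEM, RRAD, REM1, CACNA1G and CACNA1H were not analysed here. The 250 bases before the REM2 start (GRCh38.p14, chr14:22882972-22883221, plus strand) have a G+C content of 55.2%, against a median of 58.0% over all 35116 windows. They were searched on both strands for the cAMP response element (CRE) TGACGTCA, its core TGACG, which the full element contains, the NR4A monomer element AAAGGTCA, the AP-1 element TGANTCA, and the CArG box by its name. The window held 0 matches, so no letters are in capitals.
REM2: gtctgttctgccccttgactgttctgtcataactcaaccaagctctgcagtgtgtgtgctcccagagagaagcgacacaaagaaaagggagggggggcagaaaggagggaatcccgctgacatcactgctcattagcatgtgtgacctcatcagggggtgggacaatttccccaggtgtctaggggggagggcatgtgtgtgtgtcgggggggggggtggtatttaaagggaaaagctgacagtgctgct

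Of all windows of that length 1.65% held the full CRE, 21.2% the core, 1.05% the NR4A element, 6.57% the AP-1 element and 1.16% a CArG box. These letters were not in this REM2 window, which says nothing of sites elsewhere.

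The 4 pore subunits gave no called change with either agent. CACNA1D, an L-type subunit, read 9.113, 9.164 and 9.195 with DMSO, 9.130, 9.176 and 9.292 with angiotensin II, and 8.885, 8.997 and 9.092 with torcetrapib. All 3 torcetrapib arrays lay under the other 6. Its change was 0.04 ± 0.07 (adjusted p = 0.849) with angiotensin II and -0.17 ± 0.07 (adjusted p = 0.277) with torcetrapib. Between the agents it was -0.21 ± 0.07, or 1.16-fold lower with torcetrapib, with an interval from -0.35 to -0.07 and adjusted p = 0.0535, just short of the threshold of 0.05. That difference was called without DMSO replicate 2 (adjusted p = 0.0451) and without torcetrapib replicate 3 (adjusted p = 0.0406), and adjusted p ran from 0.00785 to 0.678 over its alternatives.

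CACNA1C, the L-type subunit of heart and vessel muscle, had DMSO arrays at 7.83, 7.65 and 7.67, angiotensin II arrays at 7.65, 7.66 and 7.69, and torcetrapib arrays at 7.42, 7.58 and 7.50. Here too the torcetrapib arrays were the lowest 3 of the 9, and the DMSO and angiotensin II arrays overlapped. The change was -0.05 ± 0.08 (adjusted p = 0.844) with angiotensin II and -0.22 ± 0.08 (adjusted p = 0.220) with torcetrapib. With the RNA quality index in the model the torcetrapib change was -0.13 for CACNA1C and -0.21 for CACNA1D, neither called.

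The L-type genes are the remaining members with a promoter window in the RefSeq table, and their windows are shown for that reason alone. The CACNA1D window (GRCh38.p14, chr3:53494361-53494610, plus strand) has a G+C content of 81.6% and the CACNA1C window (chr12:2052737-2052986, plus strand) one of 85.6%. Neither held a match to the motifs searched in REM2, so again no letters are in capitals.
CACNA1D: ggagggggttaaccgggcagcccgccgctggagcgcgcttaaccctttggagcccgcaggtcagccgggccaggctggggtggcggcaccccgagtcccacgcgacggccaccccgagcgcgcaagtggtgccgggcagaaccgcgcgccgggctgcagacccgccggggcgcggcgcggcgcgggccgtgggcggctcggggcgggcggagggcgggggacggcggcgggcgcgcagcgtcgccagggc
CACNA1C: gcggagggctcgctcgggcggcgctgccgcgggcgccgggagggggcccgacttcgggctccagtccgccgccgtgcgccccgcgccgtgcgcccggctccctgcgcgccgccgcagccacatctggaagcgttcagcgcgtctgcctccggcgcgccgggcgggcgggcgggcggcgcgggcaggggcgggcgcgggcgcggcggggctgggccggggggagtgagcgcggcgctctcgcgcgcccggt

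Among the T-type genes, CACNA1H read 6.65, 6.80 and 6.71 with DMSO, 6.91, 6.84 and 6.78 with angiotensin II, and 6.72, 6.78 and 6.63 with torcetrapib. The DMSO and torcetrapib arrays overlapped, and the lowest angiotensin II array lay under the highest DMSO array. The change was 0.12 ± 0.08 (adjusted p = 0.561) with angiotensin II and -0.01 ± 0.08 (adjusted p = 0.971) with torcetrapib. CACNA1G, also read by an _s_at probe set, lay at 7.72, 7.46 and 7.61 with DMSO, 7.65, 7.57 and 7.81 with angiotensin II, and 7.35, 7.57 and 7.47 with torcetrapib. All 3 groups overlapped. Its changes were 0.08 ± 0.09 (adjusted p = 0.789) and -0.14 ± 0.09 (adjusted p = 0.580).

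For the brightest probe sets of the 7 members other than GEM, the intervals give the changes these arrays leave room for. With angiotensin II they ran from -0.41 for RRAD to 0.34 for REM1, or from 1.33-fold lower to 1.27-fold higher. With torcetrapib they ran from -0.46 for REM1 to 0.17 for CACNA1H, or from 1.37-fold lower to 1.12-fold higher. Between the agents they ran from -0.51 for REM1 to 0.26 for RRAD. Some dimmer probe sets had intervals that reached further. With angiotensin II that of the dimmest of CACNA1D ran from -0.48 to 0.44. With torcetrapib the upper ends were 0.75 for that one and 0.50 for a dim one of CACNA1G. The lower end with torcetrapib was -0.49 for another one of CACNA1G, with a mean of 5.40. Between the agents the lower end of that CACNA1G one was -0.57, and the upper end of the dimmest CACNA1D one was 0.77. Other dim ones did not reach further: the dimmest of RRAD ran from -0.18 to 0.15 with angiotensin II. Of the 7, 0 had an unadjusted p under 0.05 with angiotensin II in limma and 2, CACNA1C and CACNA1D, with torcetrapib. Between the agents 3 had one, CACNA1C, CACNA1D and CACNA1G, and none of these passed the adjusted threshold. Many other genes had such a p too. Among all 19775 genes the p of CACNA1C between the agents (0.0473, limma) ranked 4791. That of CACNA1D with torcetrapib against DMSO (0.0231, limma) ranked 1645. All 7 changes were negative with torcetrapib against DMSO and against angiotensin II, 2 comparisons that share the torcetrapib arrays, where the medians of all genes were -0.03 and -0.04. Arrays of the 2 groups did not overlap for 2 of the 8 members with angiotensin II (GEM and REM2), against 17.6% of all genes, for 4 with torcetrapib (GEM, REM1, CACNA1C and CACNA1D), against 16.5%, and for 4 between the agents (GEM, CACNA1C, CACNA1D and CACNA1H), against 28.6%.

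Probe sets of one gene did not always move together. When every probe set was tested on its own, 1 of the 21 was called with angiotensin II, against 3.63% of all 41091, and 1 with torcetrapib, against 1.11%, each time that of GEM. Between the agents 2 were called, against 11.6%: GEM, and the second CACNA1D probe set, lower with torcetrapib by a log2 change of -0.28 (adjusted p = 0.0365, limma over all probe sets). That probe set read 7.49, 7.48 and 7.62 with DMSO, 7.53, 7.63 and 7.57 with angiotensin II and 7.30, 7.23 and 7.38 with torcetrapib, so its torcetrapib arrays too lay under the other 6. The third CACNA1D probe set, with a mean of 7.32, changed by -0.02 with torcetrapib against DMSO. The fourth and dimmest, with a mean of 5.20, changed by 0.29 ± 0.21.

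CACNA1C showed the same split. Its brightest probe sets, with means of 7.63 and 6.69, changed by -0.22 and -0.24 with torcetrapib, and its dimmer ones, of the _s_at type, by 0.02 and 0.10. CACNA1G had 5 probe sets with torcetrapib changes from -0.22 to 0.29. The upper value came from a dim _s_at probe set at 4.76, 4.62 and 4.70 with DMSO and 5.02, 5.07 and 4.86 with torcetrapib, which did not overlap but were not called (adjusted p = 0.180).

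**Figure D3:**
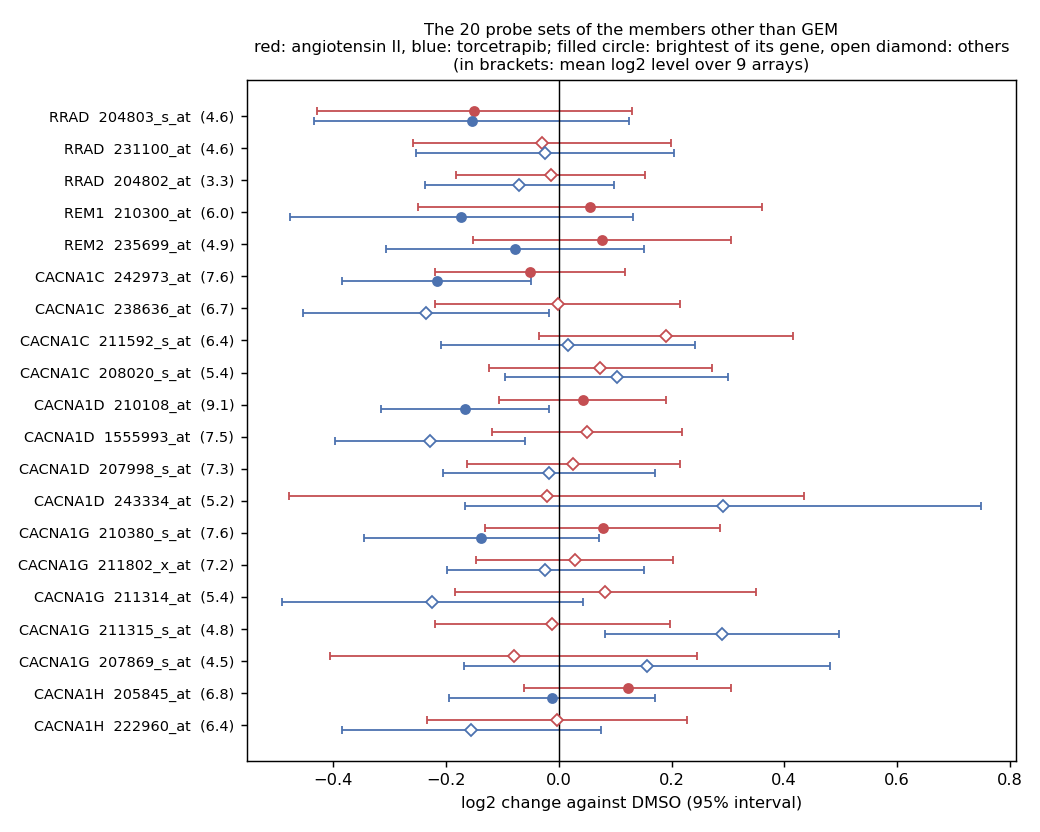
Log2 change against DMSO with 95% interval (limma over all probe sets) for the 20 probe sets of the members other than GEM, with angiotensin II in red and torcetrapib in blue, filled circles for the brightest probe set of a gene and open diamonds for the others; mean log2 levels stand in brackets. With torcetrapib the CACNA1C probe sets at 7.63 and 6.69 and the CACNA1D ones at 9.12 and 7.47 lie left of 0. The CACNA1D one at 7.32 lies near 0, at -0.02. The CACNA1C ones at 6.43 and 5.36 and the CACNA1D one at 5.20 lie right of 0. Those of CACNA1G lie on both sides.

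The partners of these members were for the most part not called. Of 6 other pore subunits 0 were called with either agent (limma, 0.05), with median changes of -0.01 and -0.09. CACNA1I, the remaining T-type gene, changed by 0.04 and 0.10, and CACNA1A, of P/Q-type channels, by -0.06 and -0.09. Of 15 auxiliary subunits 0 were called with either agent against DMSO, with medians of 0.06 and -0.07. Between the agents 2 of the 15 were called, where 11.3% of all genes were, both lower with torcetrapib: CACNB1, a beta subunit of the kind that RGK proteins bind, with -0.44 ± 0.10 (adjusted p = 0.0101), and CACNA2D2, an alpha2delta subunit, with -0.30 ± 0.09 (adjusted p = 0.0389). With angiotensin II against DMSO, CACNB1 changed by 0.32 and CACNA2D2 by 0.14, neither called (limma, adjusted p = 0.0818 and 0.513). With torcetrapib against DMSO the lowest change of the 15 was -0.16. With the RNA quality index in the model both calls between the agents were lost (limma, adjusted p = 0.635 for CACNB1 and 0.666 for CACNA2D2). Over its alternatives the CACNB1 change ran from -0.53 to -0.22 and that of CACNA2D2 from -0.38 to -0.21. The call of CACNB1 also ended without torcetrapib replicate 3 and with the mean of its probe sets, and that of CACNA2D2 without DMSO replicate 1, any angiotensin II replicate, or torcetrapib replicate 2 or 3.

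Of 20 measured RGK partners and channel regulators 1 rose with angiotensin II, where 3.36% of all genes rose, and 0 were called with torcetrapib. KIF9, a kinesin that binds GEM, rose by 0.38 ± 0.05 (adjusted p = 9.76e-05), while with _x_at and _s_at probe sets left out the change was -0.0044 (adjusted p = 0.993). KIF9, the membrane linker EZR and the 14-3-3 protein YWHAG were lower with torcetrapib than with angiotensin II (-0.28, -0.31 and -0.15), and the 14-3-3 protein YWHAZ was higher (0.18), so that 4 of 20 were called against 11.3% of all genes. With the quality index in the model these 4 calls between the agents were lost, as were those of KIF9, EZR and YWHAZ without _x_at and _s_at probe sets. The direction turned in some alternatives for 3 of them: EZR reached 0.38, KIF9 0.01 and YWHAZ -0.07. The YWHAG call also ended without angiotensin II replicate 1 or 3 or torcetrapib replicate 1 or 3, and the YWHAZ call without any single array other than DMSO replicates 1 and 2.

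Other Ras-family GTPases moved far less than GEM. Of 29 measured 2 rose with angiotensin II, where 3.36% of all genes rose: MRAS, a relative of the classical Ras proteins, by 0.32 ± 0.06 (adjusted p = 0.00248), and RASL11B by 0.32 ± 0.09 (adjusted p = 0.0471). The MRAS call held in each of the 19 refits run, while that of RASL11B held in 6 of 19 and ended without any of 8 single arrays, every one but angiotensin II replicate 3. With torcetrapib 1 of 29 fell, where 0.566% of all genes fell: RAP2A changed by -0.42 ± 0.07 (adjusted p = 0.00633), a call lost without the intensity trend, with the mean of its probe sets, with the quality index, without DMSO replicate 3 and without torcetrapib replicate 3. MRAS, RAP2A and RASL11B were lower and RIT1 higher with torcetrapib than with angiotensin II, with changes of -0.32, -0.40, -0.47 and 0.29. These 4 of 29 calls between the agents, where 11.3% of all genes were called, ended with the quality index in the model. Those of MRAS and RAP2A also ended with the mean of probe sets, with changes over the alternatives reaching -0.16 and -0.06, and that of RIT1 without the intensity trend, with arrays centred on their medians, without angiotensin II replicate 1 or 2 or any torcetrapib replicate. The median over the 29 was -0.01 with angiotensin II and -0.08 with torcetrapib, against 0.01 and -0.03 over all genes. Of 10 genes of store-operated calcium entry, with the membrane channels ORAI1 and ORAI2 brightest, 0 were called in any comparison.

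**Figure D4:**
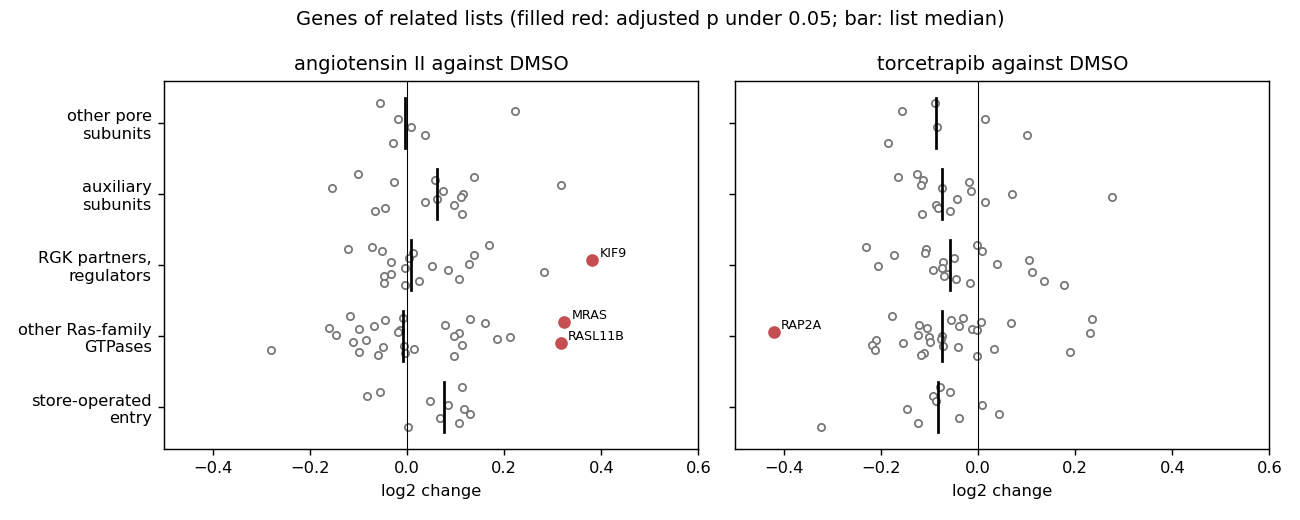
Log2 change of each measured gene of 5 related lists for angiotensin II against DMSO (left) and torcetrapib against DMSO (right), with list medians as bars and genes past an adjusted p of 0.05 in red. KIF9, MRAS and RASL11B on the left and RAP2A on the right are called, and no gene comes near the changes of GEM, 4.21 and 1.47.

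The pattern of GEM was most like that of 5 genes outside its family. Over the 9 arrays Pearson's r with GEM was 0.9986 for FOS, a subunit of the transcription factor AP-1, 0.9977 for the pseudokinase TRIB1, 0.9972 for the transcription factor NFIL3, 0.9971 for the transcription factor MITF and 0.9965 for the growth arrest gene GADD45A. These correlations describe arrays that share 3 treatments, and they rest on the steps between the groups. FOS changed by 2.82 with angiotensin II and 1.04 with torcetrapib, TRIB1 by 3.34 and 1.07, NFIL3 by 2.91 and 1.00, MITF by 2.94 and 1.21, and GADD45A by 1.89 and 0.60. All 5 had the order DMSO, torcetrapib, angiotensin II, as GEM did. Genes chosen by so high a correlation with GEM on the same arrays must have that order, so it is no separate result. FOS read 6.53, 6.59 and 6.53 with DMSO, 9.33, 9.42 and 9.37 with angiotensin II, and 7.59 on each torcetrapib array, exactly equal in the deposited values. No such search was made for the other 7 members, none of which passed the test.

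**Figure D5:**
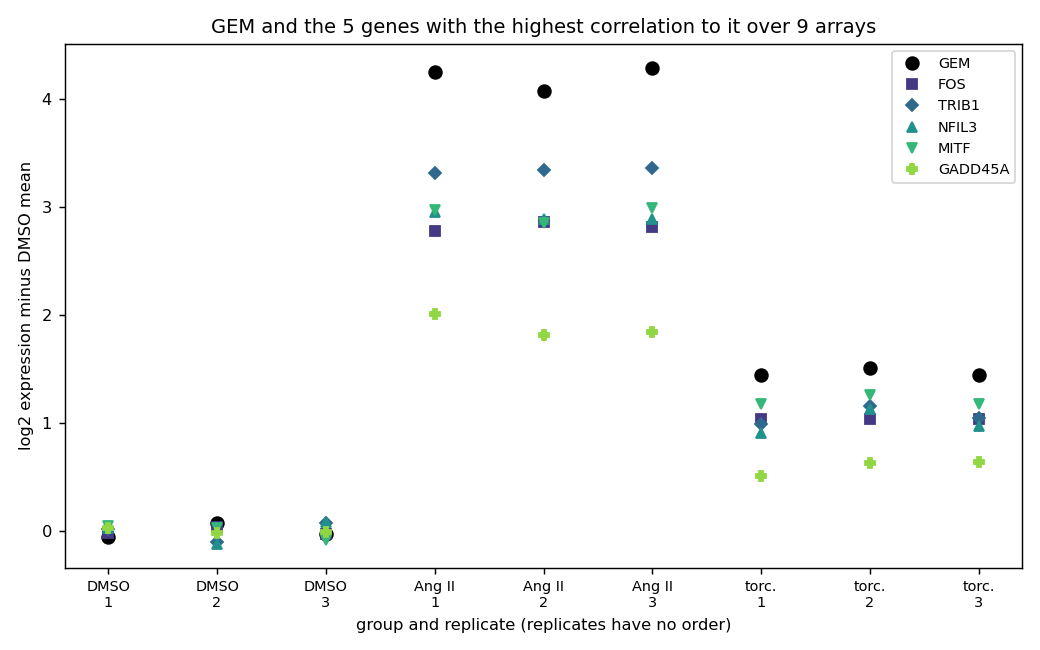
Log2 expression minus the gene's DMSO mean on each of the 9 arrays for GEM (black) and the 5 genes with the highest correlation to it, by group and replicate. Each gene is highest on the 3 angiotensin II arrays and intermediate on the 3 torcetrapib arrays, an order that comes with the choice by correlation. GEM lies above the 5 others on all 6 treated arrays.

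The FOS promoter is shown as that of the gene most like GEM, beside the REM2, CACNA1D and CACNA1C windows of members without a call. In the same length before its start (GRCh38.p14, chr14:75278578-75278827, plus strand, G+C content 64.8%) it held 1 match, a CRE core on the plus strand from 64 to 60 bases before the start, in capitals here.
FOS: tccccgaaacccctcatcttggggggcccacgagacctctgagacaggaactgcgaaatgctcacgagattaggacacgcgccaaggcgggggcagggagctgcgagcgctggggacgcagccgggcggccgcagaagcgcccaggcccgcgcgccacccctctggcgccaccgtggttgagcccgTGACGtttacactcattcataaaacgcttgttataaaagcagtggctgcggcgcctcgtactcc

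A match of these letters is a description of the window, and 21.2% of all windows hold that core.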

How the data were processed

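The unit is log2 expression per probe set, as deposited: the submitters' processing notes name robust multi-array averaging (RMA), which the authors ran in software not given in the sources used here. Of 54675 probe sets, 62 controls, 1801 with several gene symbols and 11721 with none were not tested.

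All 19775 genes went into 1 fit of the 3 group means (limma 3.58.1, R 4.3.3), with an intensity trend and 6 residual degrees of freedom. Each comparison's two-sided p-values were adjusted across all genes (Benjamini-Hochberg) and read at 0.05. A change written ± carries its SE, and intervals are 95%. The code was tested on simulated data. Members, lists and tests were chosen with earlier results of these data known. Named are all members, the called genes of each list (the brightest where none was called) and the 5 genes most correlated with each called member. Sequences are from RefSeq (GRCh38.p14), with 3 of 8 members matched. Alternatives changed the variance model, filter, scaling, probe sets, arrays, weights, threshold and RNA quality covariate.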

Additional observations from a re-analysis of the deposited data

How the results depend on the processing

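GEM kept its direction and its call in all 22 alternatives of each comparison, with log2 changes from 4.16 to 4.27 for angiotensin II, from 1.38 to 1.51 for torcetrapib and from -2.86 to -2.69 between the agents. The count of called members stayed at 1 in every alternative for angiotensin II. For torcetrapib against DMSO it was 2 with array weights, which added CACNA1C. Between the agents it was 2 with robust moderation, with dim genes left out, at a threshold of 0.10 and with every probe set tested, 3 with quantile normalisation and 6 with array weights, and from 1 to 2 with single arrays left out. CACNA1D was the added gene in most of these, REM1 without angiotensin II replicate 3, and CACNA1G as well with quantile normalisation. Array weights called 6216 of all genes between the agents, against 2232 without them and 280 with the quality index as a covariate. The weight was 6.15 for angiotensin II replicate 1, and 0.448 and 0.480 for replicates 2 and 3. The angiotensin II mean in that fit therefore rests mostly on 1 array.

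Among members without a call 18 values turned in sign, and the cause was not tested. With angiotensin II these were RRAD with array weights (0.0483), REM1 with the quality index (-0.0140) and CACNA1C by the mean of its probe sets (0.0526), and with single arrays left out the ranges were -0.261 to 0.00114 for RRAD, -0.0876 to 0.227 for REM1, -0.0834 to 0.00438 for CACNA1C and -0.00399 to 0.0771 for CACNA1D. With torcetrapib they were CACNA1G by the mean of its probe sets (0.0121) and CACNA1H with array weights (0.0260), with ranges of -0.194 to 0.01001 for REM2 and -0.0463 to 0.0282 for CACNA1H. Between the agents RRAD was at 0.0204 with quantile normalisation and 0.00585 without _x_at and _s_at probe sets, with a range of -0.156 to 0.106. No paired analysis was possible because the labels give the groups no shared replicate numbers. RRAD lay among the dimmest 25% of genes, so the filter on dim genes gave it no value. In the main fit the SE was largest for REM1, at 0.13 with a mean level of 5.95, and next largest for RRAD, at 0.12.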
